A study of Mus musculus with 24 samples.

Results

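Mitosis and spindle genes were followed in MS03 cells, a murine Nf2-/- Schwann cell line, after 24 hours with compounds directed at focal adhesion kinase (FAK). The genes were 38 symbols chosen by name, 38 of 49315 genes in the deposited count table, and all 38 passed a filter on low counts that left 16070 genes for testing. Every group carried the same Nf2-/- genotype, so no comparison concerns *Nf2* itself. The control was DMSO, the solvent of the compounds. Defactinib, VS-4718, GSK2256098 and IN10018 (ifebemtinib) are inhibitors of the kinase activity of FAK and were used at 1 µM. PROTACs join a ligand of a protein to a ligand of a ubiquitin ligase so that the protein is degraded. PROTAC FAK degrader 1 was used at 1 µM, whereas GSK215 and BSJ-04-0146 were used at 0.1 µM. There were 3 biological replicates in each of 8 groups, 24 libraries in all, from 1 cultured line.

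Cells enter mitosis when cyclin-dependent kinase 1 joins cyclin B, and Polo-like and Aurora kinases then build a spindle whose microtubules attach to kinetochores on the chromosomes. The spindle assembly checkpoint holds the anaphase-promoting complex in check until attachment is complete, after which that complex marks securin and cyclins for destruction and the cell divides. Most of these genes are transcribed late in the cell cycle, from promoters that often hold a CHR element, read by the MuvB complex, and CCAAT boxes, read by NF-Y. The members were divided by role into 8 groups, from entry kinases to cytokinesis.

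Since these genes are known to share promoter elements, windows from 250 bases before to 50 bases after the transcription start were taken from RefSeq (GRCm38.p6) and searched on both strands. Windows were matched for 31 of the 38 genes. No window was matched for *Aurkb*, *Ccna2*, *Cdc25c*, *Foxm1*, *Incenp*, *Kif20a* and *Tpx2*. The CHR letters TTTGAA were present in 23 of 31 windows (74.2%), against 18.1% of 27025 promoters. The CCAAT box, searched as CCAAT, was also present in 23 of 31 (74.2%, against 37.8% of all promoters). Both were present in 20 of 31 (64.5%, against 7.01%), and a CHR beginning no more than 50 bases before the start was found in 21 (67.7%, against 4.95%). The letters TTTCCCGC or TTTGGCGC, forms of an E2F site, were found in 0 of 31 windows, against 1.62% of all promoters, which says only that these letters are not there. In *Cdca8*, a CHR and a CCAAT box overlap.

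Below are 6 windows, from 130 bases before to 30 bases after the start, read 5′ to 3′ on the gene's own strand, with CHR and CCAAT letters of either strand in capitals. *Cdk1*, *Cdc20*, *Ube2c* and *Hmmr* are shown because they hold both elements and had lower RNA with each PROTAC. *Ccnb2* is shown because it holds both elements and had higher RNA with each PROTAC. Its rise with GSK215 was small and not called in every alternative fit. *Nusap1* is shown because it holds neither set of letters and was also higher. The windows lie at chr10:69352883-69353042 (minus strand), chr4:118437314-118437473 (minus), chr2:164769799-164769958 (plus), chr11:40733408-40733567 (minus), chr9:70421525-70421684 (minus) and chr2:119618168-119618327 (plus).
Cdk1: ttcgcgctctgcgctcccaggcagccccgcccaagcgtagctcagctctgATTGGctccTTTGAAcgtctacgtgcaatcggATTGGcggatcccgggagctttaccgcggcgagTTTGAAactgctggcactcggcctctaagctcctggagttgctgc
Cdc20: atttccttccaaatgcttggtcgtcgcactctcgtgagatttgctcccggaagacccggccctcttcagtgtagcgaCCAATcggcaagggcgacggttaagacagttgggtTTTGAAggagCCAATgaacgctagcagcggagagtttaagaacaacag
Ube2c: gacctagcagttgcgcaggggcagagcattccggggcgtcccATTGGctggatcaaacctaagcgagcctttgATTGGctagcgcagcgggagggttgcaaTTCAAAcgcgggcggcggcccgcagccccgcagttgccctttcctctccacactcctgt
Hmmr: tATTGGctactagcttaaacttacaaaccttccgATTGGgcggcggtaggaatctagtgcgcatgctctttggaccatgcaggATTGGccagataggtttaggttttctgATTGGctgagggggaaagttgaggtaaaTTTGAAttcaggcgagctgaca
Ccnb2: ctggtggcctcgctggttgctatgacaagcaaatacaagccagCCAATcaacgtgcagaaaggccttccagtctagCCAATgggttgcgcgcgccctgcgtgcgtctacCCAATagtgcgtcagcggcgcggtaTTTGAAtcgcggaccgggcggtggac
Nusap1: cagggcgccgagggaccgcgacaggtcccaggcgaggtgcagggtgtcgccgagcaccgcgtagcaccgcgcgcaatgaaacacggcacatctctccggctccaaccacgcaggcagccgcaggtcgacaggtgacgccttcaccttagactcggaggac

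Members fell with and without the CHR letters TTTGAA, and other forms of the element were not searched. With PROTAC FAK degrader 1, 20 of 23 genes with these letters and 6 of 8 without them were lower than with DMSO. The threshold was an adjusted p under 0.05, at which 32.7% of all genes were lower. The median log2 fold changes were -0.33 and -0.32. With GSK215 the counts were 21 of 23 and 5 of 8 (27.2% of all genes), and with BSJ-04-0146 19 of 23 and 5 of 8 (26.9%). Scaled by library totals alone, the counts were 18 of 23 and 5 of 8 with PROTAC FAK degrader 1 (27.7% of all genes), 12 and 4 with GSK215 (17.8%) and 11 and 4 with BSJ-04-0146 (18.5%). The 8 genes without these letters were *Ccnb1*, *Birc5*, *Cenpe*, *Nuf2*, *Bub1*, *Mad2l1*, *Pttg1* and *Nusap1*. A match is a string of letters and no binding was measured.

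**Figure D1:**
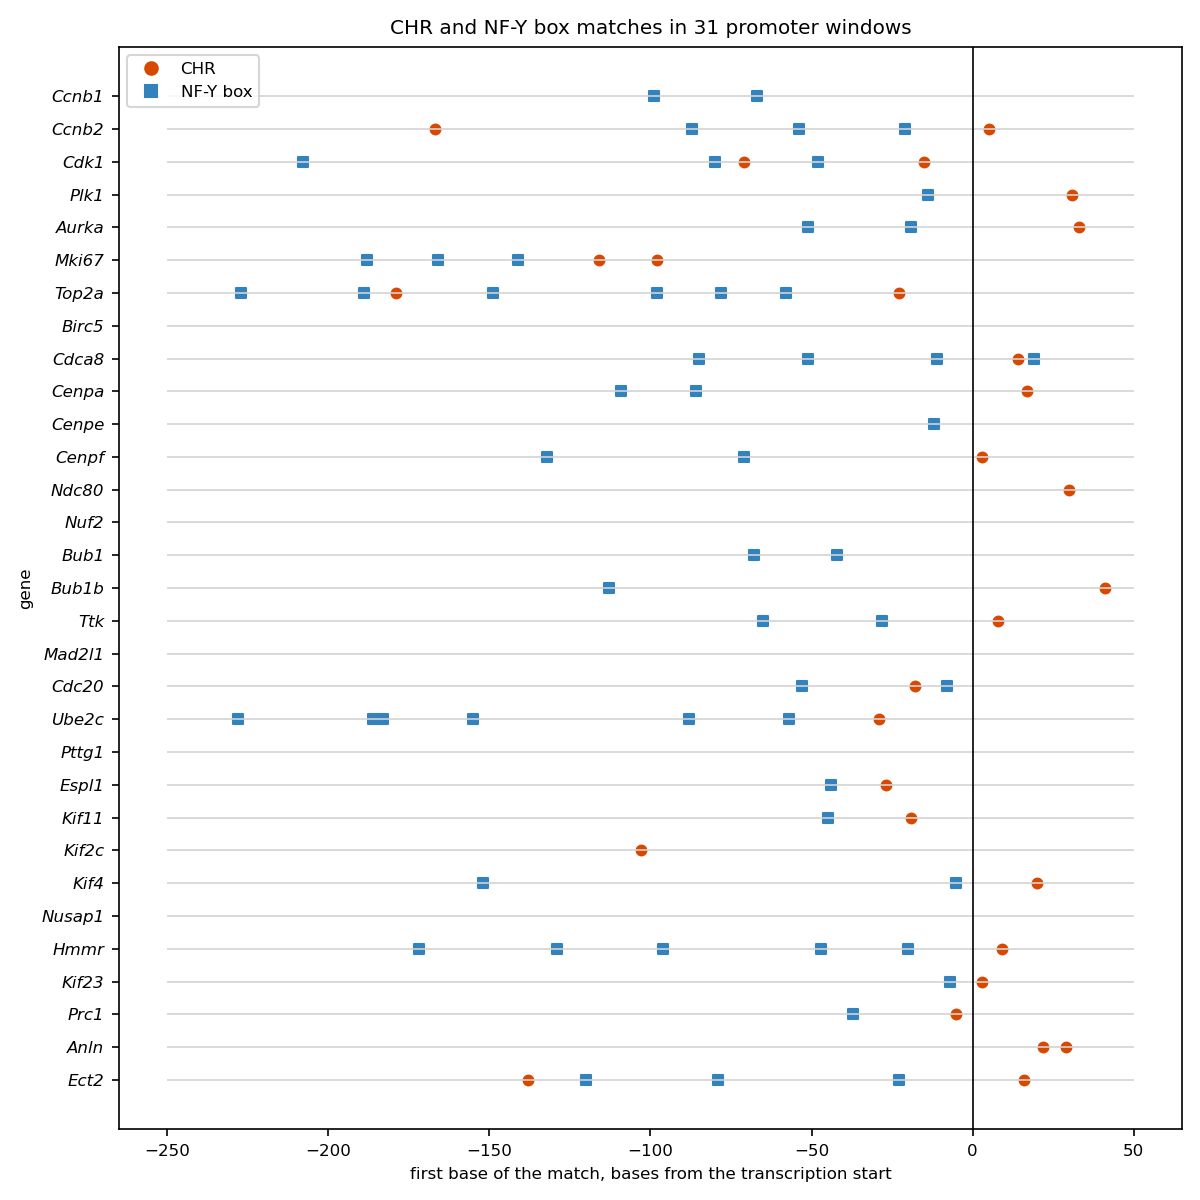
Positions of CHR (circles) and NF-Y box, that is CCAAT (squares), matches in the promoter windows of 31 genes, in bases from the transcription start (x axis). Most CHR matches lie between 50 bases before the start and the end of the window (21 of 31 genes), and CCAAT boxes lie upstream of them in most genes that hold both.

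Total counts ranged from 14472462 to 27449516, and the 9 PROTAC libraries (median 17794597) were shallower than the 12 kinase inhibitor libraries (median 23056014). The members had 575 to 23522 counts in any library. Exons of 10 members overlap a gene on the other strand, among them *Ccna2* (510 bases, *Exosc9*), *Cdca8* (232 bases), *Plk1* (156 bases) and *Cdc20* (53 bases), and exons of *Foxm1* (241 bases) and *Top2a* (122 bases) overlap a gene on the same strand, which makes their levels less certain. Levels are CPM, that is counts scaled by the library total and by edgeR's TMM factor, and values of different genes are compared only per kilobase. *Ptk2*, which encodes FAK, was expressed in every group, at 77.4 to 102 CPM. It was 92.90 to 97.7 CPM with DMSO, 95.6 to 102 with PROTAC FAK degrader 1, 77.4 to 78.6 with GSK215 and 78.1 to 81.0 with BSJ-04-0146. With kinase inhibitors it was 83.7 to 88.1 (defactinib), 83.5 to 85.3 (VS-4718), 84.7 to 88.7 (GSK2256098) and 89.2 to 92.89 (IN10018). PROTACs act on the protein, which was not measured here. *Nf2* gave 155 to 193 CPM. It was 178 to 184 CPM with DMSO, lower with GSK215 (155 to 162) and BSJ-04-0146 (160 to 172) and higher with VS-4718 (185 to 193). The other groups overlapped DMSO. Counts per gene cannot show a deletion of some exons of *Nf2*. Of the Schwann cell markers, *Sox10*, *Ngfr* and *Foxd3* were detected, whereas *S100b*, *Gap43* and *Egr2* had at most 18 counts in any library. The fibroblast collagens *Col1a1* and *Col1a2* were abundant, with *Lum* at 0 and *Dcn* and *Thy1* at no more than 3 counts. *Pdgfra*, the other fibroblast marker, had 167 to 548 counts. Against DMSO it rose with GSK215 (log2 fold change 1.09) and BSJ-04-0146 (1.07) and fell with PROTAC FAK degrader 1 (-0.50). The collagens parted with VS-4718 (*Col1a1* 0.27, *Col1a2* -0.36) and GSK215 (0.19 and -0.19). The sum of the fibroblast markers below therefore does not stand for each marker. The summed level of the 10 Schwann cell markers differed between groups, from 56.4 to 59.9 CPM with DMSO to 78.8 to 87.6 with defactinib, 117 to 132 with VS-4718, 78.7 to 82.6 with GSK2256098, 59.1 to 61.9 with IN10018, 51.0 to 57.9 with PROTAC FAK degrader 1, 235 to 247 with GSK215 and 213 to 233 with BSJ-04-0146. The sum of the 6 fibroblast markers ran from 1732 to 1776 CPM with DMSO, from 1767 to 1824 with defactinib, from 1516 to 1585 with VS-4718, from 1761 to 1815 with GSK2256098, from 1581 to 1648 with IN10018, from 994 to 1008 with PROTAC FAK degrader 1, from 1631 to 1684 with GSK215 and from 1334 to 1410 with BSJ-04-0146. The sum of the 6 macrophage markers, mostly *Cd68*, ran from 3.71 to 4.10 CPM with DMSO, from 4.58 to 5.28 with defactinib, from 5.20 to 6.21 with VS-4718, from 4.28 to 4.60 with GSK2256098, from 3.79 to 4.43 with IN10018, from 11.2 to 12.0 with PROTAC FAK degrader 1, from 6.20 to 7.88 with GSK215 and from 7.90 to 9.34 with BSJ-04-0146, with *Ptprc*, *Adgre1* and *Itgam* at no more than 1 count. The part of these shifts in the results below was not tested.

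In DMSO-treated cells the 38 genes together took 0.806% to 0.816% of counts. Per kilobase of exon, *Cdc20*, the activator of the anaphase-promoting complex, was the most abundant member at 147 CPM per kb. *Top2a*, the topoisomerase that untangles chromosomes, followed at 99.0 and *Ccnb1*, cyclin B1, at 85.1 CPM per kb. The lowest were *Cdc25c*, a phosphatase that activates cyclin-dependent kinase 1, and *Ndc80*, a microtubule-binding kinetochore subunit, at 9.25 and 9.20 CPM per kb.

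The summed level of the 38 genes was 8408 ± 57.5 CPM (SD, n = 3) with DMSO. It was 6460 ± 80.5 with PROTAC FAK degrader 1 (76.8% of DMSO), 7172 ± 58.2 with GSK215 (85.3%) and 7194 ± 45.2 with BSJ-04-0146 (85.6%). Every PROTAC library lay below every other library, as the highest PROTAC sum was 7244 and the lowest elsewhere 7734 CPM. Among kinase inhibitors, VS-4718 gave 7807 ± 82.8 (92.9%) and IN10018 8048 ± 31.5 (95.7%), and their libraries lay below all DMSO libraries. Defactinib (8348 ± 93.6, 99.3%) overlapped DMSO, and GSK2256098 (8557 ± 24.5, 102%) lay above it. These sums rest on the TMM factor. As a plain share of counts, the 38 genes took 0.806% to 0.816% with DMSO and 0.652% to 0.670% with PROTAC FAK degrader 1. They took 0.747% to 0.762% with GSK215 and 0.744% to 0.752% with BSJ-04-0146, closer to DMSO than the sums were. The highest PROTAC library was then near the lowest VS-4718 library, at 0.764%. The libraries are of whole cultures, so fewer cells in mitosis and less of these RNAs per cell cannot be told apart.

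Each compound was then compared with DMSO gene by gene, to ask which members changed and in which direction. Calls required an adjusted p under 0.05 (quasi-likelihood F test of edgeR, Benjamini-Hochberg correction across the 16070 genes). All 7 comparisons share the 3 DMSO libraries, so their values are set side by side only. With PROTAC FAK degrader 1, 32 of 38 members fell and 4 rose, where 32.7% of all genes fell and 34.1% rose. GSK215 lowered 32 and raised 3 members (27.2% and 27.4% of all genes), and BSJ-04-0146 lowered 30 and raised 4 (26.9% and 27.7%). VS-4718 lowered 18 and raised 3 (18.9% and 20.4%). Counts were small for defactinib (5 lower and 2 higher, against 11% and 11.4% of all genes), IN10018 (6 lower and 1 higher, against 6.85% and 6.44%) and GSK2256098 (0 lower and 2 higher, against 6.09% and 6.36%). For the count of 0, 1 member was lower with GSK2256098 at an unadjusted p under 0.05 in edgeR, and DESeq2 also called 0. In terms of ranges, all 3 libraries with PROTAC FAK degrader 1 lay below every DMSO library for 31 members (34% of all genes). They lay above for 4 (35.7%). The counts were 33 and 3 with GSK215 (30.2% and 30.5%), and 31 and 5 with BSJ-04-0146 (29.1% and 30.2%). With kinase inhibitors they were 23 and 4 (VS-4718), 16 and 3 (IN10018), 14 and 5 (defactinib) and 2 and 11 (GSK2256098). The share over all genes was not counted for those 4 compounds, so their counts are not read further.

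Most of the changes were small on the log2 scale. The median log2 fold change of the 38 members was -0.32 with PROTAC FAK degrader 1, -0.24 with GSK215 and -0.19 with BSJ-04-0146, where the median over all genes was at most 0.021. It was -0.082 with VS-4718, -0.035 with IN10018, -0.033 with defactinib and 0.022 with GSK2256098. A change of at least 1.5-fold was reached by 9 members, all with PROTAC FAK degrader 1 (8 lower and 1 higher, where 14.4% and 16.4% of all genes passed both limits). For scale, the shares of all genes higher and lower by that much were 1.19% and 0.454% with defactinib, 2.83% and 2.73% with VS-4718, 0.51% and 0.268% with GSK2256098, 0.479% and 0.18% with IN10018, 11.2% and 4.41% with GSK215, and 11.3% and 4.77% with BSJ-04-0146. With all 3 PROTACs, 28 members fell and 2, *Ccnb2* and *Nusap1*, rose, where 13% of all genes fell and 11.8% rose with all 3. The size of this count rests on the scaling between libraries: when TMM was left out and only library totals were used, which raised the median of all genes to 0.14 for GSK215 and 0.13 for BSJ-04-0146, 13 members fell and 3 rose with all 3 PROTACs, against 7.87% and 18.1% of all genes. Members lowered and raised under that scaling were 26 and 4 with PROTAC FAK degrader 1 (27.7% and 39.1% of all genes), 22 and 5 with GSK215 (17.8% and 38.5%) and 18 and 7 with BSJ-04-0146 (18.5% and 37.4%). With DESeq2 or with no filter on low counts, only *Nusap1* was higher with all 3 PROTACs, as the *Ccnb2* call for GSK215 was lost. Of the 28 members lowered by all 3 PROTACs in the main fit, 9 were called with no kinase inhibitor. Of the 2088 genes lowered by all 3, 20.5% (2.66% of all genes) had no kinase inhibitor call.

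**Figure D2:**
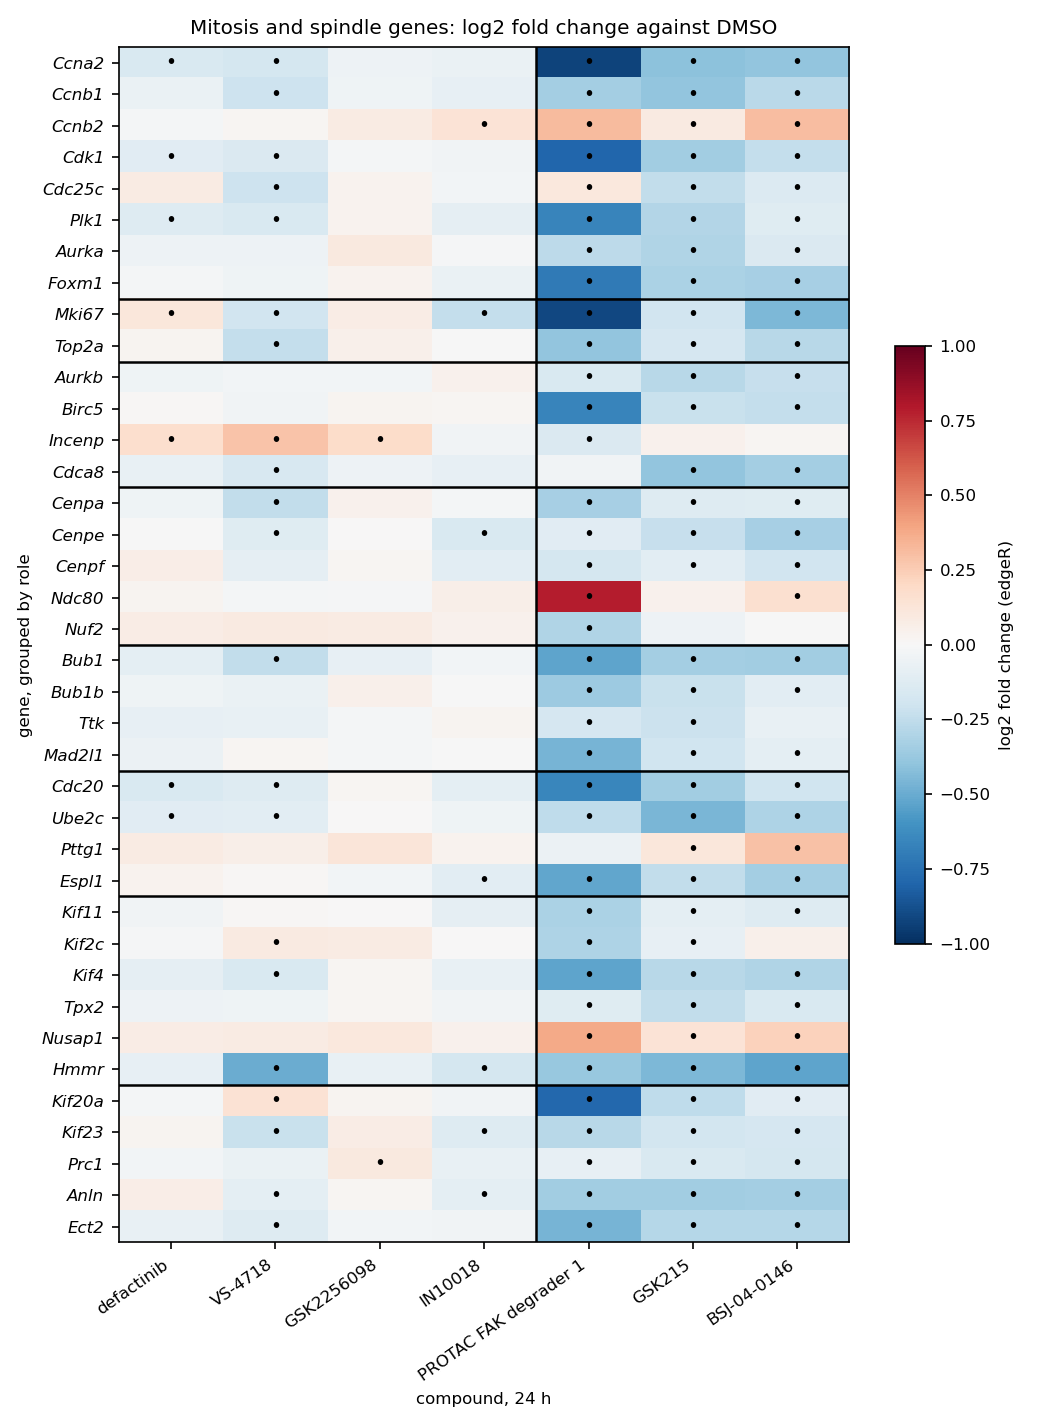
Log2 fold change against DMSO (colour) of 38 genes (rows, divided by role) with 7 compounds (columns, kinase inhibitors left of the line and PROTACs right of it), with a dot where the adjusted p was under 0.05. The PROTAC columns are blue for most genes, with *Ccnb2* and *Nusap1* red in all 3 and *Ndc80* reaching 0.79 with PROTAC FAK degrader 1.

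Among the genes that start mitosis, 6 of 8 fell and 2 rose with PROTAC FAK degrader 1, and 7 fell and 1 rose with each of the other PROTACs. Over all genes, 32.7% fell and 34.1% rose with PROTAC FAK degrader 1, 27.2% and 27.4% with GSK215, and 26.9% and 27.7% with BSJ-04-0146. *Ccna2*, cyclin A2, stood at 306, 311 and 303 CPM in the DMSO libraries and at 157, 169 and 159 CPM with PROTAC FAK degrader 1, the deepest fall of any member (log2 fold change -0.92, standard error 0.033, adjusted p = 3.25e-25). With GSK215 it was 233, 229 and 229 CPM (log2 fold change -0.41) and with BSJ-04-0146 242, 235 and 223 CPM (-0.39). No PROTAC library reached the DMSO range. *Ccna2* was also the largest fall with defactinib, at 281, 275 and 270.2 CPM (log2 fold change -0.15, standard error 0.031, adjusted p = 0.000292), and VS-4718 gave 269, 269 and 277 CPM (-0.17). The 6 libraries of GSK2256098 and IN10018, without a call, lay between 287 and 305 CPM.

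*Cdk1*, the kinase that drives mitotic entry, was 203, 204 and 199.9 CPM with DMSO, 119, 117 and 115 with PROTAC FAK degrader 1, 159, 156 and 162 with GSK215 and 174, 176.8 and 165 with BSJ-04-0146. These were log2 fold changes of -0.79 (adjusted p = 7.59e-22), -0.35 (adjusted p = 4.88e-11) and -0.23 (adjusted p = 2.83e-07), with no overlap with DMSO. VS-4718 (179, 178 and 192 CPM, log2 fold change -0.14, standard error 0.034, adjusted p = 0.000704) and defactinib (192, 193 and 177.03 CPM, -0.11, lost without DMSO replicate 2 or defactinib replicate 3) also lowered *Cdk1*. The 6 libraries of GSK2256098 and IN10018, without a call, lay between 196 and 205 CPM. *Foxm1*, a transcription factor that activates many of the other genes, was within a narrow range with DMSO (213, 213 and 212 CPM) and fell to 129, 132 and 129 CPM with PROTAC FAK degrader 1 (log2 fold change -0.71, standard error 0.031, adjusted p = 2.63e-22). It fell alike with GSK215 (172, 171 and 170.4 CPM, -0.31) and BSJ-04-0146 (165, 165 and 176.9 CPM, -0.33), and no kinase inhibitor changed it past the threshold (-0.07 to 0.03), and the 12 kinase inhibitor libraries, none with a call, lay between 200.3 and 222 CPM.

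*Plk1*, Polo-like kinase 1, was 184, 176 and 189 CPM with DMSO and 118, 117 and 112 CPM with PROTAC FAK degrader 1 (log2 fold change -0.66, standard error 0.038, adjusted p = 3.3e-18). With GSK215 its libraries read 146, 149 and 151 CPM (-0.30), and with BSJ-04-0146 166, 166 and 172 CPM (-0.12, a call lost with library totals alone). Defactinib (159, 168 and 173 CPM, -0.13) and VS-4718 (174, 162 and 156 CPM, -0.15) lowered *Plk1* as well, the first of these losing its call without DMSO replicate 3 or defactinib replicate 1. The 6 libraries of GSK2256098 and IN10018, without a call, lay between 164 and 189.7 CPM. *Aurka*, the centrosomal Aurora kinase, stood at 149, 147 and 148 CPM with DMSO and at 114, 120.1 and 124 CPM with GSK215, its largest fall (log2 fold change -0.30, standard error 0.035, adjusted p = 1.51e-09). It was 125, 123 and 122 CPM with PROTAC FAK degrader 1 (-0.26) and 133, 139 and 128 CPM with BSJ-04-0146 (-0.15, not called with library totals alone). The 12 kinase inhibitor libraries, none with a call, lay between 139 and 161 CPM.

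The B-type cyclins parted. *Ccnb1* was 363, 356 and 357 CPM with DMSO and fell to 287, 286 and 280.4 CPM with PROTAC FAK degrader 1, 271, 276 and 274 with GSK215 and 304, 306 and 281 with BSJ-04-0146 (log2 fold changes -0.34, -0.39 and -0.27). VS-4718 lowered it too, to 307, 307 and 318 CPM (log2 fold change -0.21, standard error 0.032, adjusted p = 1.11e-06), below every DMSO library. The 9 libraries of defactinib, GSK2256098 and IN10018, without a call, lay between 329.7 and 356 CPM. *Ccnb2*, cyclin B2, was 99.2, 95.7 and 96.7 CPM with DMSO and rose to 121, 125 and 117 CPM with PROTAC FAK degrader 1 (log2 fold change 0.32, standard error 0.036, adjusted p = 5.37e-10) and 119.6, 123 and 119 CPM with BSJ-04-0146 (log2 fold change 0.31, standard error 0.037, adjusted p = 2.16e-09). With GSK215 it was 102, 103 and 105 CPM, a rise of 0.09 on the log2 scale (adjusted p = 0.0312) that was lost with DESeq2 (adjusted p = 0.0561) and without DMSO replicate 2, DMSO replicate 3, GSK215 replicate 2 or GSK215 replicate 3. All 9 PROTAC libraries lay above the DMSO range for *Ccnb2* and below it for *Ccnb1*. The ratio of *Ccnb2* to *Ccnb1* within a library, which does not depend on the scaling between libraries, ran from 0.269 to 0.273 with DMSO, from 0.418 to 0.438 with PROTAC FAK degrader 1, from 0.373 to 0.385 with GSK215 and from 0.394 to 0.422 with BSJ-04-0146. With the 4 kinase inhibitors it ran from 0.271 to 0.328. This ratio was chosen after the values were seen. *Ccnb2* was also the one member that rose with IN10018 (110.1, 100.04 and 109.7 CPM, log2 fold change 0.13, standard error 0.036, adjusted p = 0.0101), a call lost without DMSO replicate 2, IN10018 replicate 1 or IN10018 replicate 3. The 9 libraries of defactinib, VS-4718 and GSK2256098, without a call, lay between 95.2 and 106 CPM. *Cdc25c* fell with GSK215 (-0.24), VS-4718 (-0.21) and BSJ-04-0146 (-0.14, lost with library totals alone). It was slightly higher with PROTAC FAK degrader 1 (0.11, edgeR adjusted p = 0.0409). That call was lost with DESeq2, when thinned, with no filter and in 5 of 6 fits that each left out 1 replicate. The gene shares 623 bases of exon with *Gm3550* on the other strand.

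*Mki67*, which encodes the proliferation marker Ki-67, separated the compounds most widely. Its libraries read 672, 677 and 648 CPM with DMSO, 349, 351 and 362 with PROTAC FAK degrader 1, 609, 582 and 558 with GSK215 and 482, 469 and 510.3 with BSJ-04-0146. The log2 fold changes were -0.91 (standard error 0.037, adjusted p = 2.59e-23), -0.19 and -0.45, and no PROTAC library reached the DMSO range, although the fall with GSK215 was not called with library totals alone. IN10018 (556, 584 and 557 CPM, -0.23) and VS-4718 (558, 575 and 612 CPM, -0.19) also lowered it. Defactinib raised it to 729, 692 and 738 CPM (log2 fold change 0.11, standard error 0.036, adjusted p = 0.0199), a call lost without DMSO replicate 3, defactinib replicate 1 or defactinib replicate 3. The 3 libraries of GSK2256098, without a call, lay between 689 and 712 CPM. *Top2a* was 898, 884 and 893 CPM with DMSO, 668, 690.2 and 678 with PROTAC FAK degrader 1 (-0.39), 813, 790.3 and 779 with GSK215 (-0.17, not called with library totals alone) and 759, 723 and 730.3 with BSJ-04-0146 (-0.27). VS-4718 lowered *Top2a* as well, to 728, 745 and 790.0 CPM (-0.24), and the 9 libraries of defactinib, GSK2256098 and IN10018, without a call, lay between 864 and 936 CPM (-0.01 to 0.05).

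**Figure D3:**
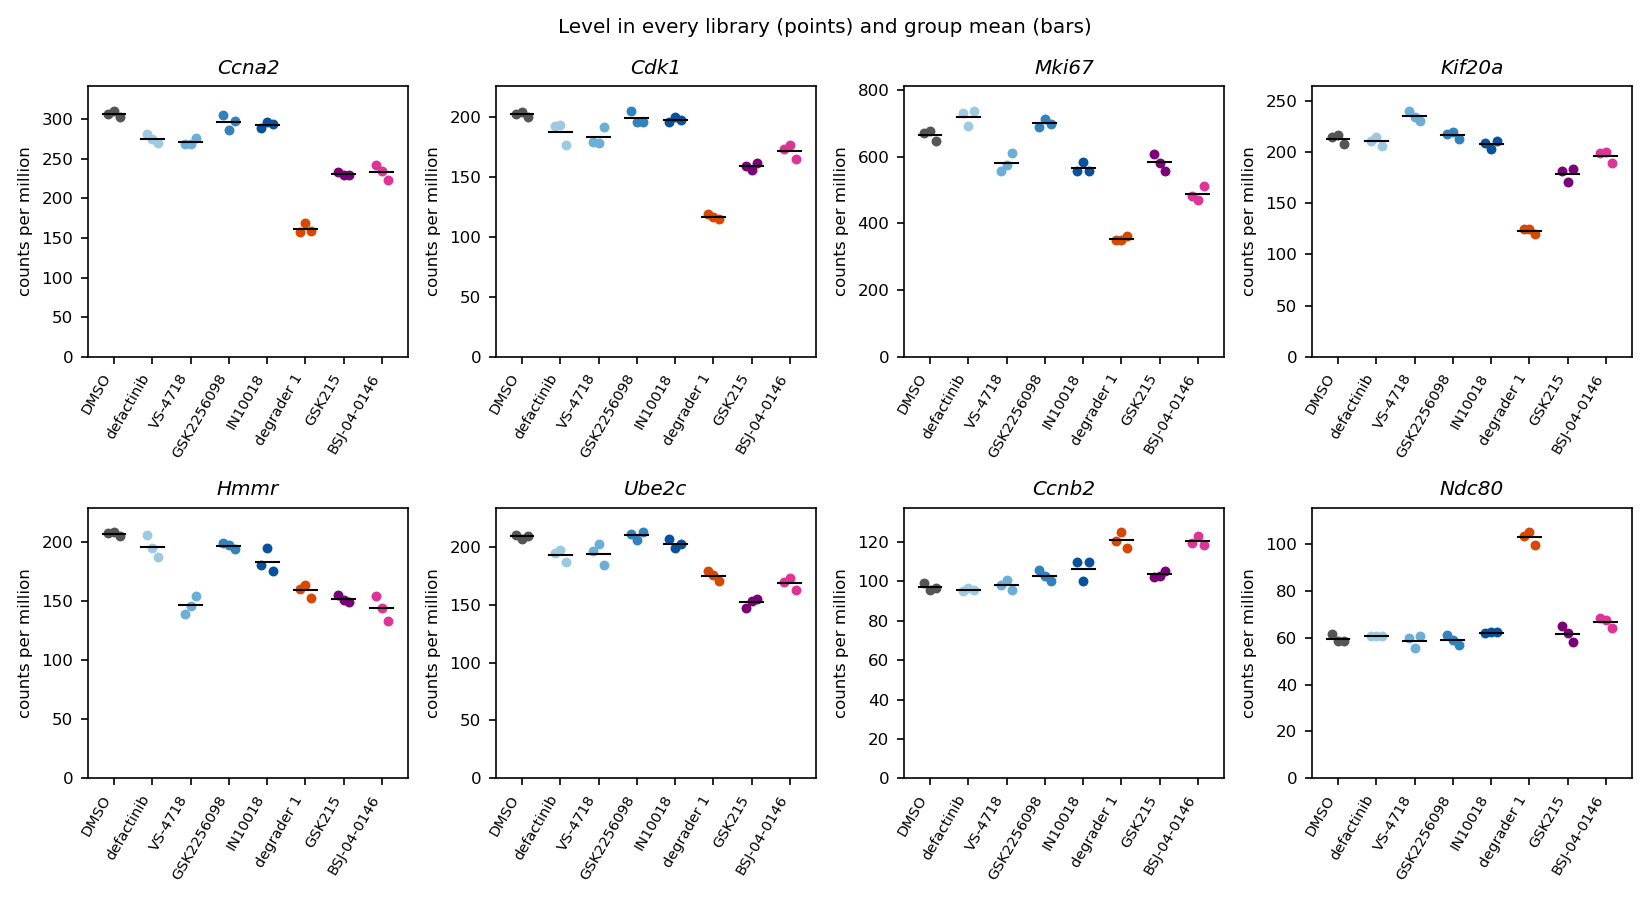
Level of 8 genes in each of 24 libraries (points) with the group mean (bars), in CPM from 0 (y axis), for DMSO and 7 compounds (x axis; degrader 1 is PROTAC FAK degrader 1). *Ccna2*, *Cdk1*, *Mki67* and *Kif20a* are lowest with PROTAC FAK degrader 1, *Hmmr* is also low with VS-4718, and *Ccnb2* and *Ndc80* are higher with PROTAC FAK degrader 1 than with DMSO.

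The chromosomal passenger complex corrects wrong attachments and joins Aurora B kinase to survivin, borealin and the scaffold INCENP, and its 4 genes did not move together. *Birc5*, survivin, was 144, 148 and 144 CPM with DMSO and 95.7, 87.5 and 92.8 CPM with PROTAC FAK degrader 1 (log2 fold change -0.66, standard error 0.036, adjusted p = 3.84e-19). GSK215 (125, 126 and 124 CPM, -0.22) and BSJ-04-0146 (122, 127 and 121 CPM, -0.24) lowered it less against DMSO, and none of the PROTAC libraries overlapped DMSO. The 12 kinase inhibitor libraries, none with a call, lay between 138 and 153 CPM. *Aurkb* read 147, 139.6 and 147 CPM with DMSO, 133, 128 and 129 with PROTAC FAK degrader 1 (-0.15, not called with library totals alone), 115, 120.1 and 122 with GSK215 (-0.28) and 122, 121 and 125 with BSJ-04-0146 (-0.23), and the 12 kinase inhibitor libraries, none with a call, lay between 134 and 152 CPM. *Cdca8*, borealin, fell with GSK215 (-0.39), BSJ-04-0146 (-0.34) and VS-4718 (-0.16), and its change with PROTAC FAK degrader 1 was not past the threshold (log2 fold change -0.04, adjusted p = 0.412).

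*Incenp* was the largest rise with 3 kinase inhibitors. From 225, 230.1 and 217 CPM with DMSO it went to 249, 246 and 259.7 CPM with defactinib (log2 fold change 0.17, standard error 0.037, adjusted p = 0.000684), 279, 268 and 271 CPM with VS-4718 (log2 fold change 0.28, standard error 0.036, adjusted p = 3.79e-08) and 242, 252 and 269 CPM with GSK2256098 (log2 fold change 0.18, standard error 0.037, adjusted p = 0.000587). All 9 of these libraries lay above all DMSO libraries. IN10018 (219, 209 and 228 CPM, -0.04), GSK215 (0.04) and BSJ-04-0146 (0.02) gave no call, but with library totals alone GSK215 (0.17) and BSJ-04-0146 (0.13) did. PROTAC FAK degrader 1 lowered *Incenp* to 211, 199.9 and 195 CPM (-0.15), a call lost with library totals alone (-0.07, adjusted p = 0.112). The ratio of *Incenp* to *Aurkb*, also chosen after the values were seen, was 1.48 to 1.65 with DMSO, 1.72 to 1.84 with defactinib, 1.84 to 2.02 with VS-4718, 1.71 to 1.89 with GSK2256098, 1.445 to 1.497 with IN10018, 1.52 to 1.59 with PROTAC FAK degrader 1, 1.87 to 1.98 with GSK215 and 1.82 to 1.88 with BSJ-04-0146.

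At the centromere and kinetochore, PROTAC FAK degrader 1 lowered 4 of 5 genes and raised *Ndc80* (32.7% and 34.1% of all genes). *Ndc80* was 61.8, 58.8 and 58.5 CPM with DMSO and 104, 105 and 99.9 CPM with PROTAC FAK degrader 1, the largest rise of any member (log2 fold change 0.79, standard error 0.04, adjusted p = 5.92e-20). BSJ-04-0146 gave 68.5, 67.4 and 64.3 CPM (log2 fold change 0.16, standard error 0.043, adjusted p = 0.00148), and GSK215 65.3, 61.9 and 58.1 CPM, which overlapped DMSO (log2 fold change 0.05, adjusted p = 0.395, called at 0.17 with library totals alone), while the 12 kinase inhibitor libraries, none with a call, lay between 55.9 and 62.5 CPM. *Nuf2*, the partner of *Ndc80* in the same complex, went the other way with PROTAC FAK degrader 1 (106, 109 and 106 CPM with DMSO, 86.0, 94.4 and 81.6 CPM with the compound, log2 fold change -0.30, standard error 0.041, adjusted p = 4.92e-08). The ratio of *Ndc80* to *Nuf2*, chosen after the values were seen, ran from 0.539 to 0.582 with DMSO and from 1.11 to 1.22 with PROTAC FAK degrader 1, and no library of another group exceeded 0.642.

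*Cenpe*, a kinetochore motor, was 239, 236 and 233 CPM with DMSO, 215, 223 and 218 with PROTAC FAK degrader 1 (-0.11), 212, 196 and 195 with GSK215 (-0.23) and 188, 181 and 194 with BSJ-04-0146 (-0.33). The first of these calls was lost with library totals alone and without PROTAC FAK degrader 1 replicate 1. IN10018 lowered *Cenpe* to 215, 221 and 201 CPM (-0.15), a call lost without IN10018 replicate 3. VS-4718 lowered it to 205, 216 and 229 CPM (-0.12), a call lost with library totals alone and without VS-4718 replicate 1. The 6 libraries of defactinib and GSK2256098, without a call, lay between 225 and 248 CPM. *Cenpf*, a large kinetochore protein of late cell cycle, changed little, from 307, 301 and 300.1 CPM with DMSO to 264, 269 and 271 with PROTAC FAK degrader 1 (-0.18), 260.3, 260.3 and 273 with BSJ-04-0146 (-0.19, not called with library totals alone) and 293, 280.2 and 271 with GSK215 (-0.11, which turned to 0.02 with library totals alone and was lost without DMSO replicate 1, GSK215 replicate 2 or GSK215 replicate 3), and the 12 kinase inhibitor libraries, none with a call, lay between 269 and 331 CPM. *Cenpa*, the histone that marks centromeres, fell with PROTAC FAK degrader 1 (-0.33) and VS-4718 (-0.25), and by less with GSK215 (-0.13) and BSJ-04-0146 (-0.12), calls lost with library totals alone.

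All 4 genes of the spindle assembly checkpoint fell with PROTAC FAK degrader 1 (32.7% of all genes) and with GSK215 (27.2%). With BSJ-04-0146, 3 of 4 fell (26.9%). *Bub1*, a checkpoint kinase, was 166, 164 and 162 CPM with DMSO, 111, 118 and 113 with PROTAC FAK degrader 1 (log2 fold change -0.53, standard error 0.037, adjusted p = 6.82e-16), 133, 133 and 123 with GSK215 (-0.34) and 132, 131 and 125 with BSJ-04-0146 (-0.35). VS-4718 lowered it to 133, 135 and 146 CPM (log2 fold change -0.25, standard error 0.036, adjusted p = 3.54e-07), and these 4 treated groups did not overlap DMSO. The 9 libraries of defactinib, GSK2256098 and IN10018, without a call, lay between 149 and 165 CPM. *Mad2l1*, which encodes the inhibitor of *Cdc20*, was 146, 144 and 139 CPM with DMSO and 103, 108 and 99.3 CPM with PROTAC FAK degrader 1 (log2 fold change -0.47, standard error 0.038, adjusted p = 4.54e-14). Its values with GSK215 (119, 130.2 and 125 CPM, -0.20) and BSJ-04-0146 (139, 132 and 129 CPM, -0.10) lost their calls with library totals alone, the second turning to 0.01 and also being lost without any 1 of 4 replicates. The 12 kinase inhibitor libraries, none with a call, lay between 133 and 149 CPM. *Bub1b*, the checkpoint protein BubR1, had log2 fold changes of -0.36, -0.22 and -0.10 with PROTAC FAK degrader 1, GSK215 and BSJ-04-0146, the last turning to 0.00 with library totals alone. *Ttk*, the kinase at the head of the checkpoint, fell with PROTAC FAK degrader 1 (-0.16) and GSK215 (-0.22), both lost with library totals alone.

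Of the 4 genes of anaphase and mitotic exit, *Cdc20*, *Ube2c* and *Espl1* fell with each PROTAC (13% of all genes did) and *Pttg1* did not. *Cdc20* stood at 275, 272 and 275 CPM with DMSO, 178, 171 and 175 with PROTAC FAK degrader 1 (log2 fold change -0.65, standard error 0.04, adjusted p = 1.63e-17), 204, 215 and 226 with GSK215 (-0.35) and 236, 238 and 241 with BSJ-04-0146 (-0.20). Defactinib (238, 248 and 255 CPM, -0.15) and VS-4718 (259, 263 and 229 CPM, -0.13) lowered it by a smaller amount against DMSO, the latter losing its call without VS-4718 replicate 3. The 6 libraries of GSK2256098 and IN10018, without a call, lay between 246 and 283 CPM. *Ube2c*, the ubiquitin-conjugating enzyme of the anaphase-promoting complex, was 210.3, 207 and 209.9 CPM with DMSO and had its largest fall with GSK215 (147, 154 and 155 CPM, log2 fold change -0.46, standard error 0.034, adjusted p = 9.43e-15). It was 179, 176 and 171 CPM with PROTAC FAK degrader 1 (-0.26) and 169, 173 and 163 CPM with BSJ-04-0146 (-0.31), and its 592 bases of exon shared with *Tnnc2* lie on the other strand. Defactinib lowered *Ube2c* to 195, 197 and 187 CPM (-0.12, lost without defactinib replicate 3) and VS-4718 to 196, 202 and 184 CPM (-0.11, lost with library totals alone and without VS-4718 replicate 3). The 6 libraries of GSK2256098 and IN10018, without a call, lay between 199.6 and 213 CPM.

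*Espl1*, separase, which cuts the cohesin between sister chromatids, fell by 0.52, 0.25 and 0.34 on the log2 scale with PROTAC FAK degrader 1, GSK215 and BSJ-04-0146, and by 0.11 with IN10018, a call lost with no filter on low counts and without DMSO replicate 2, DMSO replicate 3 or IN10018 replicate 2. *Pttg1*, securin, the inhibitor of separase, was 47.5, 47.5 and 45.1 CPM with DMSO and rose to 55.5, 61.9 and 54.5 CPM with BSJ-04-0146 (log2 fold change 0.30, standard error 0.048, adjusted p = 1.48e-06). With GSK215 it was 51.3, 48.7 and 51.4 CPM, just past the threshold (0.11, edgeR adjusted p = 0.0499). The call was lost in DESeq2 (adjusted p = 0.0931), with no filter on low counts and in 5 of 6 fits that each left out 1 replicate. With PROTAC FAK degrader 1 its libraries overlapped DMSO (47.4, 44.4 and 42.6 CPM, log2 fold change -0.06, adjusted p = 0.31), and the 12 kinase inhibitor libraries, none with a call, lay between 47.3 and 53.0 CPM.

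Among spindle motors and assembly factors, 5 of 6 genes fell and *Nusap1* rose with PROTAC FAK degrader 1 and with GSK215. With BSJ-04-0146, 4 fell and *Nusap1* rose. The shares of all genes lower and higher were 32.7% and 34.1%, 27.2% and 27.4%, and 26.9% and 27.7%, in that order. *Nusap1*, which bundles microtubules near chromosomes, was 97.8, 93.7 and 92.1 CPM with DMSO, 122, 129 and 117 with PROTAC FAK degrader 1 (log2 fold change 0.38, standard error 0.046, adjusted p = 1.95e-09), 114, 106 and 112 with BSJ-04-0146 (0.23) and 113, 98.9 and 99.97 with GSK215 (0.14, lost without DMSO replicate 3 or GSK215 replicate 1). None of these libraries overlapped DMSO, and the 12 kinase inhibitor libraries, none with a call, lay between 93.9 and 106 CPM. The gene shares 172 bases of exon with *Oip5* on the other strand. *Hmmr*, a spindle protein and hyaluronan receptor, was 208, 208 and 206 CPM with DMSO and had the largest fall with BSJ-04-0146 (155, 144 and 133 CPM, log2 fold change -0.52, standard error 0.043, adjusted p = 1.52e-13). GSK215 gave 155, 151 and 149.6 CPM (-0.45) and PROTAC FAK degrader 1 160.5, 164 and 153 CPM (-0.38). Among kinase inhibitors VS-4718 lowered *Hmmr* to 139, 146 and 154 CPM (log2 fold change -0.50, standard error 0.042, edgeR adjusted p = 1e-12), which was 70.7% of DMSO. IN10018 lowered it to 180.3, 195 and 175 CPM (-0.17). The 6 libraries of defactinib and GSK2256098, without a call, lay between 187 and 206 CPM.

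*Kif11*, the motor that pushes spindle poles apart, was 148, 148 and 143 CPM with DMSO and 116, 119 and 118 CPM with PROTAC FAK degrader 1 (log2 fold change -0.31, standard error 0.036, adjusted p = 4.77e-10). GSK215 (133, 137 and 139.7 CPM, -0.10) and BSJ-04-0146 (137, 130.3 and 135 CPM, -0.13) lowered it slightly, with both calls lost with library totals alone and the first turning to 0.02 and also being lost without DMSO replicate 1, DMSO replicate 2 or GSK215 replicate 1. The 12 kinase inhibitor libraries, none with a call, lay between 135 and 156 CPM. *Tpx2*, the activator of Aurora A on the spindle, read 329.6, 306 and 316 CPM with DMSO, 294, 298 and 282 with PROTAC FAK degrader 1 (-0.12), 269.5, 258 and 272 with GSK215 (-0.25) and 284, 283 and 287 with BSJ-04-0146 (-0.16), and only the GSK215 call held with library totals alone, while the 12 kinase inhibitor libraries, none with a call, lay between 298 and 323 CPM. *Kif4*, a chromosome-bound motor, fell by 0.53, 0.27 and 0.30 on the log2 scale with PROTAC FAK degrader 1, GSK215 and BSJ-04-0146 and by 0.15 with VS-4718, and shares 832 bases of exon with *Pdzd11* on the other strand. *Kif2c*, a microtubule depolymerase, fell with PROTAC FAK degrader 1 (-0.31) and slightly with GSK215 (-0.08). The latter turned to 0.04 with library totals alone and was lost with no filter on low counts and without any 1 of 4 replicates. With VS-4718 the log2 fold change of *Kif2c* was 0.09 (edgeR adjusted p = 0.0282), a call lost with DESeq2 (adjusted p = 0.0501). The call was also lost when thinned, with no filter, with only the groups compared and in 5 of 6 fits that each left out 1 replicate.

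All 5 genes of the central spindle and cytokinesis fell with each PROTAC, where 13% of all genes did (7.87% with library totals alone). *Kif20a*, a motor of the central spindle, was 214, 216 and 208 CPM with DMSO and 125, 125 and 120.0 CPM with PROTAC FAK degrader 1 (log2 fold change -0.79, standard error 0.033, adjusted p = 5.16e-23). It was 182, 171 and 183 CPM with GSK215 (-0.25) and 199, 199.7 and 189.7 CPM with BSJ-04-0146 (-0.12, not called with library totals alone). VS-4718 raised it to 240.4, 234 and 230.2 CPM (log2 fold change 0.14, standard error 0.031, adjusted p = 0.000244), above every DMSO library. The 9 libraries of defactinib, GSK2256098 and IN10018, without a call, lay between 203 and 219.7 CPM. *Kif20a* shares 1271 bases of exon with *Cdc23* on the other strand, and the strand setting of the counting is not given in the sources used here. *Prc1*, which cross-links the central spindle, went from 206, 202 and 196 CPM with DMSO to 185, 173 and 176.7 with BSJ-04-0146 (-0.18), 181, 182 and 180.0 with GSK215 (-0.15) and 187, 196 and 189 with PROTAC FAK degrader 1 (-0.08, overlapping DMSO). None of these calls held with library totals alone, and the last turned to 0.00. The last was also lost when thinned, with no filter and without any 1 of 4 replicates. *Prc1* rose with GSK2256098 (219, 209 and 217 CPM, log2 fold change 0.09, standard error 0.03, edgeR adjusted p = 0.0326). That call was lost when thinned, with no filter and in 4 of 6 fits that each left out 1 replicate. The gene shares 911 bases of exon with *Rccd1* on the other strand. The 9 libraries of defactinib, VS-4718 and IN10018, without a call, lay between 189 and 202 CPM. *Anln*, *Ect2* and *Kif23*, which act at the central spindle or the cleavage furrow, fell with each PROTAC by 0.17 to 0.47 on the log2 scale, of which the *Kif23* calls for GSK215 and BSJ-04-0146 were lost with library totals alone. VS-4718 lowered these genes too, *Kif23* to 136, 136 and 136 CPM from 159.8, 156 and 161 CPM with DMSO (-0.23, against -0.18 with GSK215 and -0.17 with BSJ-04-0146), with *Ect2* at -0.13 and *Anln* at -0.10. The *Kif23* and *Ect2* calls with VS-4718 held under every alternative run gene by gene, and the *Anln* call was lost with library totals alone. IN10018 lowered *Kif23* (-0.13, lost without IN10018 replicate 3) and *Anln* (-0.09, lost with library totals alone, when thinned, with no filter and in 5 of 6 fits that each left out 1 replicate).

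Compounds could be compared directly where the dose was the same, in 10 pairs at 1 µM and 1 pair at 0.1 µM. PROTAC FAK degrader 1 was lower than defactinib for 31 of 38 members and higher for 3, where 34% and 34.9% of all genes were lower and higher. At least 1.5-fold was reached by 6 that were lower and 1 that was higher (16.2% and 17.1% of all genes). *Mki67* differed most, by -1.02 (95% interval -1.10 to -0.95, adjusted p = 5.45e-25), followed by *Kif20a* at -0.77 (95% interval -0.84 to -0.71, adjusted p = 9.95e-23) and *Ccna2* at -0.77 (95% interval -0.83 to -0.70, adjusted p = 1.21e-22). The 3 members that were higher were *Ndc80* (0.76), *Ccnb2* (0.34) and *Nusap1* (0.30). For *Cdc25c*, *Cdca8*, *Prc1* and *Ttk* no difference was called, with 95% intervals of the difference between -0.16 and 0.12. Against the other kinase inhibitors PROTAC FAK degrader 1 was lower for 28 members (VS-4718, 34.3% of all genes), 33 (GSK2256098, 33.6%) and 29 (IN10018, 31.1%), and higher for 6, 3 and 4 (34.6%, 34.1% and 32.4%). *Hmmr* was among the 6 that were higher than with VS-4718, by 0.12 (95% interval 0.03 to 0.20, adjusted p = 0.0134).

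GSK215 and BSJ-04-0146, both at 0.1 µM, differed for fewer members: 13 were lower with GSK215 and 3 were higher, where 12.6% and 9.88% of all genes were (0.759% and 0.821% by at least 1.5-fold, with 0 members). *Ccnb2* was lower with GSK215 by -0.22 (95% interval -0.29 to -0.14, adjusted p = 2.81e-05) and *Pttg1* by -0.18 (95% interval -0.28 to -0.08, adjusted p = 0.00493). *Plk1* (-0.17), *Aurka* (-0.16), *Ube2c* (-0.15), *Cdc20* (-0.15) and *Kif20a* (-0.14) were lower as well. *Mki67* was higher with GSK215 by 0.26 (95% interval 0.18 to 0.33, adjusted p = 1.07e-06), with *Top2a* (0.11) and *Espl1* (0.09). For *Foxm1* the difference was 0.02 (95% interval -0.05 to 0.08, adjusted p = 0.778), for *Ccna2* -0.02 (95% interval -0.08 to 0.05, adjusted p = 0.752) and for *Ect2* -0.00 (95% interval -0.07 to 0.06, adjusted p = 0.984), none of them called. The count of 16 fell to 9 without BSJ-04-0146 replicate 2.

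**Figure D4:**
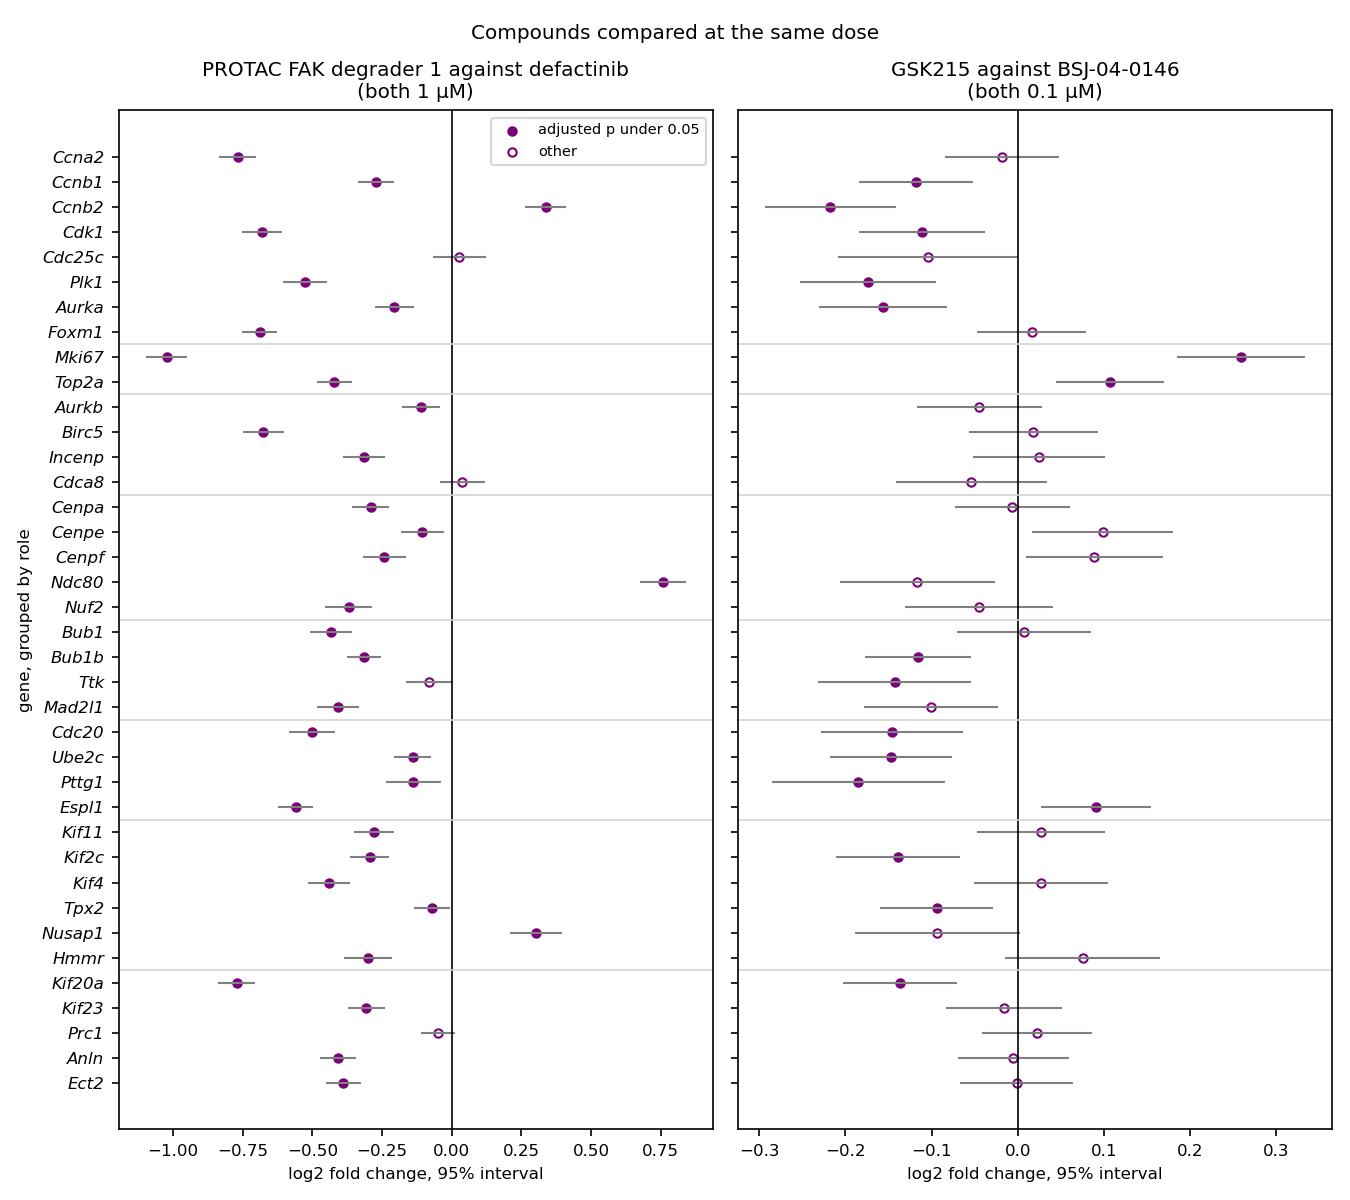
Difference between compounds at the same dose for 38 genes (rows), as log2 fold change (points) with 95% intervals (lines), for PROTAC FAK degrader 1 against defactinib at 1 µM and GSK215 against BSJ-04-0146 at 0.1 µM; filled points have an adjusted p under 0.05. On the left most genes lie below 0, with *Mki67* at -1.02 and *Ndc80* at 0.76, and on the right, where the axis is narrower, they lie between -0.22 and 0.26.

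The kinase inhibitors differed from each other too. GSK2256098 was higher than VS-4718 for 22 members and lower for 2, where 12.8% and 14.3% of all genes were, with *Hmmr* at 0.43 (95% interval 0.34 to 0.51, adjusted p = 2.67e-10), *Kif23* at 0.30, *Top2a* at 0.29 and *Cenpa* at 0.29. The 2 that were lower were *Kif20a* (-0.12) and *Incenp* (-0.10). VS-4718 was lower than defactinib for 11 members and higher for 3 (16% and 18% of all genes), and *Hmmr* (-0.42) and *Mki67* (-0.31) led. IN10018 was higher than VS-4718 for 12 and lower for 5 (19.6% and 21.3%), with *Hmmr* higher by 0.33 and *Incenp* lower (-0.32). Against GSK2256098, IN10018 was lower for 12 members and higher for 0 (11.2% and 9.78%), where 1 was higher at an unadjusted p under 0.05 in edgeR, and *Mki67* was lowest (-0.31); DESeq2 was not run for this pair. GSK2256098 was higher than defactinib for 8 members, led by *Cdc20* (0.17), and lower for 0 (5.89% and 5.59%), where 1 was lower at an unadjusted p under 0.05. IN10018 against defactinib gave 3 higher and 7 lower (17.9% and 16.6%).

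These counts use p-values adjusted over all genes within a pair. Adjusted over the 11 pairs of each gene instead, IN10018 against defactinib gave 6 higher and 9 lower in place of 3 and 7. GSK2256098 against defactinib gave 12 higher and 1 lower in place of 8 and 0, and IN10018 against GSK2256098 gave 16 lower in place of 12. GSK215 was then lower than BSJ-04-0146 for 15 members and higher for 5. PROTAC FAK degrader 1 was lower than defactinib for 30 and lower than VS-4718 for 27, and GSK2256098 was higher than VS-4718 for 23. The other counts of the 11 pairs were the same under both adjustments. The adjustment over pairs was made for the members alone, so no share of all genes can be set beside its counts.

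Each compound was given the same weight in a comparison of the 3 PROTACs and the 4 kinase inhibitors, in which GSK215 and BSJ-04-0146 were at 0.1 µM and the other compounds at 1 µM, so that for those 2 class and dose cannot be told apart. With the PROTACs, 34 members were lower and 3 higher (32.6% and 34% of all genes), with a median log2 difference of -0.22. By at least 1.5-fold, 0 members differed (3.55% of all genes lower and 9% higher). *Ccna2* (log2 fold change -0.47, standard error 0.018, adjusted p = 2.94e-24), *Mki67* (-0.46) and *Foxm1* (-0.43) were lowest, and *Ndc80* (0.32), *Ccnb2* (0.19) and *Nusap1* (0.17) were higher. Without PROTAC FAK degrader 1, a setting chosen after seeing the data, the median was -0.18.

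Other genes of cell division were read in the same fit. Of 82 other mitosis genes found of 83 listed, 47 fell and 13 rose with PROTAC FAK degrader 1 (median -0.21), where 32.7% and 34.1% of all genes did. With GSK215 49 fell and 7 rose (-0.17, against 27.2% and 27.4% of all genes), and with BSJ-04-0146 48 fell and 11 rose (-0.15, against 26.9% and 27.7%). *Ncapg2*, a condensin subunit, fell by 1.06 on the log2 scale and *Psrc1*, a spindle protein, rose by 0.93 with PROTAC FAK degrader 1. *Trip13*, a checkpoint ATPase, fell by 0.65 with GSK215 and by 0.56 with BSJ-04-0146. VS-4718 lowered 27 and raised 9 (18.9% and 20.4% of all genes), with the condensin subunit *Smc4* at -0.41. Of the 15 subunits of the anaphase-promoting complex, the machine that *Cdc20* and *Ube2c* serve, 5 fell (33.3%) and 6 rose (40%) with PROTAC FAK degrader 1, near the 32.7% and 34.1% of all genes. With GSK215 6 fell and 3 rose (40% and 20%, against 27.2% and 27.4% of all genes), and with BSJ-04-0146 3 fell and 7 rose (20% and 46.7%, against 26.9% and 27.7%). The medians were 0.06, 0.03 and 0.08. *Anapc16* rose by 0.78 with PROTAC FAK degrader 1.

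Of 35 genes of DNA replication and S phase, which precede mitosis, 31 fell and 2 rose with PROTAC FAK degrader 1, where 32.7% and 34.1% of all genes did, and the median log2 fold change was -0.85. Of the 38 members, 32 fell and the median was -0.32. *Rrm2*, the ribonucleotide reductase subunit, fell by 2.00, *Ccne1*, cyclin E1, fell by 1.92 and *Ccne2*, cyclin E2, fell by 1.90. With GSK215 31 of 35 fell and 4 were not called (median -0.31, against 27.2% of all genes that fell), and with BSJ-04-0146 29 fell and 3 rose (-0.30, against 26.9% and 27.7%), where the medians of the 38 members were -0.24 and -0.19. Defactinib lowered 18 S phase genes, with *Mcm6*, a helicase subunit, at -0.23, and raised 1, *Ccne1*, by 0.35 (median -0.11, against 11% and 11.4% of all genes), where it lowered 5 members. VS-4718 lowered 19 of 35 and raised 5 (-0.09, against 18.9% and 20.4%). No test was made of the difference between lists.

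**Figure D5:**
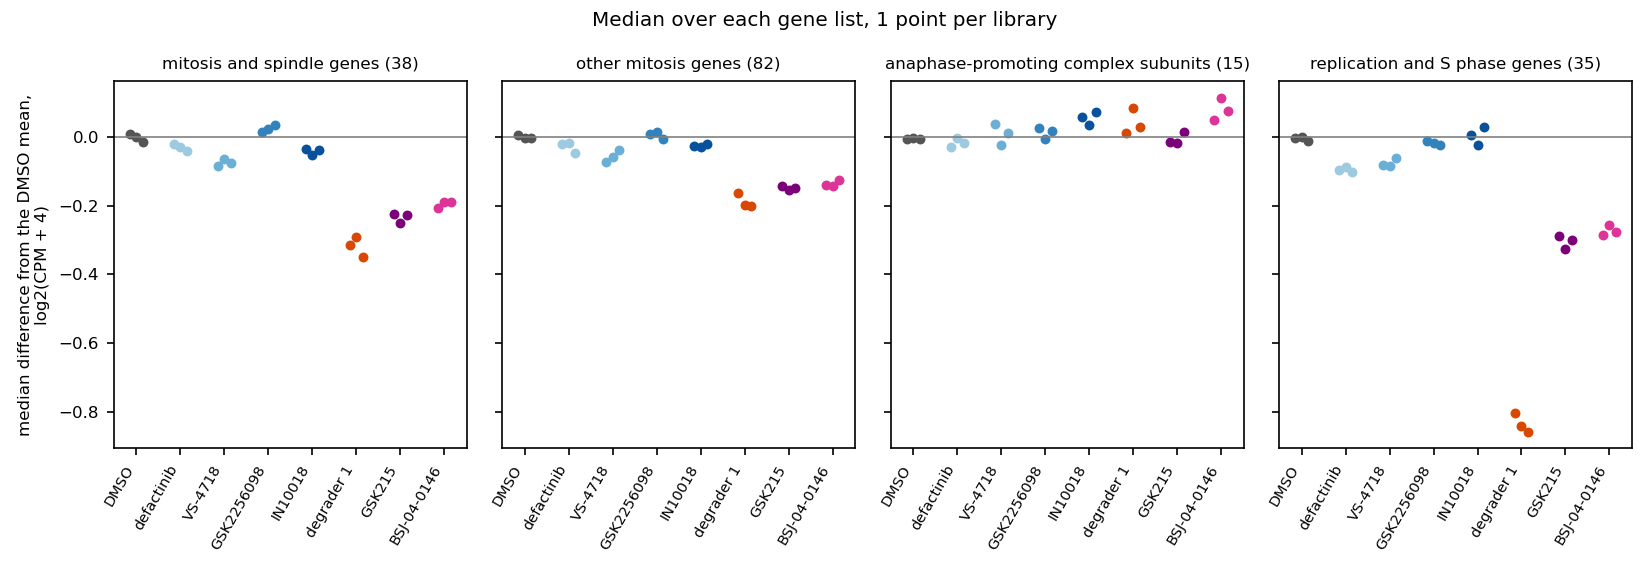
Median over each of 4 gene lists of the difference from the DMSO mean on the log2(CPM + 4) scale (y axis), with 1 point for each library of DMSO and 7 compounds (x axis; degrader 1 is PROTAC FAK degrader 1). The 38 members lie between -0.35 and -0.19 in the 9 PROTAC libraries, the S phase genes reach -0.86 with PROTAC FAK degrader 1, and the subunits of the anaphase-promoting complex stay between -0.03 and 0.11.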

How the data were processed

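The authors deposited whole-number read counts per Ensembl gene for 24 libraries, made from frozen cell pellets with poly(A) selection. The submitters' processing notes name Trimmomatic 0.36, STAR 2.5.2b, featureCounts of Subread 1.5.2 and the build GRCm38. The strand setting is not given in the sources used here, so reads of overlapping genes on opposite strands may be mixed. Every column was mapped to a sample by its library number.

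The count model was fitted by edgeR 4.0.16 under R 4.3.3 (TMM, filterByExpr, glmQLFit and glmQLFTest, 8 groups, 16 residual degrees of freedom). *P* values were two-sided and adjusted over 16070 genes by the Benjamini-Hochberg method. The standard error of a log2 fold change was taken as its absolute value over the root of F. The procedure was tested on simulated data. Replicates differed by more than counting noise (chi-square per degree of freedom 1.80 to 9.44), and none was counted as a copy of another. P-values measure the spread between cultures of 1 line.

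The members, gene lists and tests were chosen with earlier results of these data known. All 38 members are named. Library values are given for 20 members chosen by role and for the 2 largest rises and falls in each comparison with DMSO, with kinase inhibitors that had no call given as a range, and other lists by counts with up to 3 genes of the largest change. Coordinates and exon overlaps are from GENCODE M21 and promoters from RefSeq, both on GRCm38, with the lower coordinate used for 2 genes with 2 entries. Alternatives were DESeq2 1.42.0, library totals alone, limma-trend (limma 3.58.1) on log2(CPM + 4), no filter, a replicate block, only the groups compared, a minimum of 1.5-fold, and leaving out each replicate. Thinning to the smallest total and leaving out PROTAC FAK degrader 1 were added after seeing the data. Cell growth, protein and animal work from the same study was not used here. The level of 1 marker gene is not reported here.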

Additional observations from a re-analysis of the deposited data

How the results depend on the processing

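Of 142 calls of members against DMSO, 95 held under every alternative run gene by gene (the 1.5-fold minimum was counted for the lists only), and 47 were lost under at least 1. Of 266 results 7 reversed their sign, all with library totals and no TMM factors. The reversed log2 fold changes were 0.0040 for *Prc1* with PROTAC FAK degrader 1, 0.017 for *Cenpf*, 0.023 for *Kif11* and 0.038 for *Kif2c* with GSK215, and 0.10 for *Nuf2*, 0.0041 for *Bub1b* and 0.0086 for *Mad2l1* with BSJ-04-0146. That setting moved the medians of the members to -0.015 (defactinib), -0.044 (VS-4718), 0.035 (GSK2256098), -0.24 (PROTAC FAK degrader 1), -0.12 (GSK215), -0.076 (BSJ-04-0146), -0.14 (PROTACs against kinase inhibitors), -0.24 (PROTAC FAK degrader 1 against defactinib) and -0.031 (GSK215 against BSJ-04-0146). It raised the median of all genes from 0.021 to 0.14 for GSK215 and from 0.018 to 0.13 for BSJ-04-0146, and members higher and lower numbered then 5 and 22 (GSK215), 7 and 18 (BSJ-04-0146) and 5 and 15 (VS-4718), instead of 3 and 32, 4 and 30, and 3 and 18. With no filter on low counts the medians were -0.25 for GSK215 and -0.21 for BSJ-04-0146, and GSK2256098 had 1 call. With only the groups compared, GSK2256098 had 8 calls and IN10018 had 12. With libraries thinned, GSK2256098 had 1 call and the median for BSJ-04-0146 was -0.21. Without PROTAC FAK degrader 1 the PROTACs differed from the kinase inhibitors by a median of -0.18. At least 1.5-fold was reached by 9 members with PROTAC FAK degrader 1, by 7 against defactinib and by 0 in each of the other 8 comparisons. Leaving out each replicate gave 4 to 7 calls for defactinib (4 without defactinib replicate 3), 1 to 2 for GSK2256098, 3 to 7 for IN10018 (3 without IN10018 replicate 3) and 9 to 18 for GSK215 against BSJ-04-0146. Medians then ran from -0.10 to -0.073 for VS-4718, from -0.049 to -0.031 for IN10018, from -0.20 to -0.18 for BSJ-04-0146 and from -0.058 to -0.015 for GSK215 against BSJ-04-0146. The cause of these shifts was not tested. Calls over all genes are not set beside these counts, so shifts of the members cannot be told from shifts of all genes.

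Replicate numbers did not pair the samples, as in no comparison were all 3 correlations of same-numbered libraries over 0.1. The fit with a replicate block gave 7, 21, 2, 7, 36, 35 and 34 calls for the 7 compounds in the order defactinib, VS-4718, GSK2256098, IN10018, PROTAC FAK degrader 1, GSK215 and BSJ-04-0146, and 37, 34 and 16 for the 3 other comparisons, with no call of a member against DMSO changed. Every library matched its own number best (3 of 3) only for GSK215 against DMSO. Leaving out a replicate assumes that the 2 libraries that remain vary like the other groups. Members had at least 575 counts in each library. Thinning to the smallest total, an alternative chosen after seeing the data, lost 5 calls, *Kif2c* with VS-4718, *Prc1* with GSK2256098 and with PROTAC FAK degrader 1, *Anln* with IN10018 and *Cdc25c* with PROTAC FAK degrader 1, and gained 3, *Bub1*, *Kif4* and *Ect2* with defactinib.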

Other observations

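Regulators that sit above the mitosis genes were listed separately. Of 16 genes of the MuvB complex, the pocket proteins, B-Myb and their E2F and NF-Y partners, 8 fell (50%) and 6 rose (37.5%) with PROTAC FAK degrader 1, where 32.7% and 34.1% of all genes did. With GSK215 7 fell and 5 rose (43.8% and 31.2%, against 27.2% and 27.4% of all genes), and with BSJ-04-0146 6 fell and 4 rose (37.5% and 25%, against 26.9% and 27.7%). *Mybl2*, which encodes B-Myb, was the largest fall with each PROTAC, at log2 fold changes of -1.23, -0.93 and -0.84 (edgeR adjusted p = 1.44e-25, 3.01e-21 and 6e-20). It also fell with defactinib (-0.21) and GSK2256098 (-0.12). *Tfdp1*, the dimer partner of E2F proteins, fell by 1.11 and *Rb1*, the retinoblastoma gene, rose by 1.08 with PROTAC FAK degrader 1. *E2f4*, a repressive E2F, fell with GSK215 (-0.44) and BSJ-04-0146 (-0.52).

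Among the inhibitors of cyclin-dependent kinases, *Cdkn1a*, which encodes p21, had a log2 fold change of 1.32 with PROTAC FAK degrader 1 and of 0.76 with IN10018, and fell with GSK215 (-1.82), BSJ-04-0146 (-1.18), VS-4718 (-1.005), defactinib (-0.68) and GSK2256098 (-0.62). The edgeR adjusted p was 3.65e-19 for PROTAC FAK degrader 1 and 7.99e-18 for GSK215. *Cdkn1b*, p27, rose by 0.99 with PROTAC FAK degrader 1. Of 6 inhibitors tested of 7 listed, 5 rose and 1 was not called with PROTAC FAK degrader 1 (83.3%, against 34.1% of all genes that rose). With each of the other PROTACs 4 rose and 2 fell (66.7% and 33.3%), where 27.4% and 27.2% of all genes did with GSK215 and 27.7% and 26.9% with BSJ-04-0146.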
